A study of Mus musculus with 3 samples.

Results

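The genes examined are those of the cytosolic ribosome, taken as the protein-coding mouse genes whose symbol in the GENCODE M21 annotation is Rpl or Rps with a number and at most one of the letters a, x, y or l, or is Rplp0, Rplp1, Rplp2 or Rpsa. This rule found 80 genes among 28641 named genes in the count tables, 31 of the small subunit and 49 of the large subunit. It used no measured value. Fusion genes such as Fau, and relatives with longer names such as Rpl22l1, Rps3a1 and Rps27rt, lie outside it.

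The ribosome makes all cellular protein from messenger RNA: the small subunit reads the message and the large subunit joins the amino acids. Each ribosomal protein is made in step with the others, and their mRNAs are among the most abundant of a dividing cell. Most begin with a short run of pyrimidines at the cap, the 5′ terminal oligopyrimidine (TOP) tract, through which growth signalling sets their translation. Nearly every ribosomal protein gene has left processed pseudogenes, intronless copies of its mRNA, in mammalian genomes. Embryonic stem cells divide rapidly, and their demand for ribosomes is high.

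Single embryonic stem cells derived from the mouse blastocyst were sequenced on 3 chips, called plates here, each with 3 cell types. All cells carried loxP-flanked Mll1 alleles (Mll1fl/fl) and Cre-ER TM, a tamoxifen-inducible Cre recombinase, on C57BL/6J. Mll1, now named Kmt2a, encodes a histone H3 lysine 4 methyltransferase. Deleted cells are those labelled Mll1-/-, inhibited cells those labelled with Mll1 inhibition, and control cells those labelled Mll1fl/fl control. Which inhibitor was used, at what dose and for how long, which exons were removed, and whether control cells received tamoxifen or vehicle is not in the labels. Whether each plate held a culture of its own is not stated either; a p-value here weighs a difference against plate-to-plate variation that can be purely technical.

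Of 4610 wells of these types, 4413 had at least 1000 detected genes and under 20% mitochondrial UMIs (unique molecular identifiers, each counting 1 captured molecule): 1310 deleted, 1590 inhibited and 1513 control. Their counts were summed per plate and cell type into 9 libraries of 25914860 to 43773924 UMIs. The 10 stem cell markers, among them Pou5f1, Nanog and Dppa5a, were all detected and summed to 5190 to 6655 CPM (counts scaled to the TMM-normalised library size) in deleted, 4609 to 5471 CPM in inhibited and 6264 to 6455 CPM in control libraries, while 7 fibroblast or feeder markers summed to 0.827 to 6.04 CPM. Kmt2a itself had 62.1, 49.9 and 39.2 CPM in deleted, 40.6, 43.4 and 46.7 CPM in inhibited and 50.2, 50.2 and 54.7 CPM in control libraries of plates 1, 2 and 3. Its log2 difference between deleted and control libraries was −0.05 ± 0.16 (SE; edgeR adjusted p = 0.959), so the count over the whole gene did not separate the labels; with the deleted exons unknown it does not check them either. On plates 1 and 2 the cells of one type came from the same source wells of the dispensing plate, and on plate 3 the types had other source wells; type and source well cannot be told apart within a plate. Cell barcodes recurred between plates: 503 between plates 1 and 2, 458 between plates 1 and 3, 436 between plates 2 and 3, and 137 on all 3.

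Several ribosomal protein mRNAs have copies elsewhere in the genome that share long stretches of sequence with them. How reads from such stretches were assigned is not stated, and their part in the levels below was not tested. The coding sequence of Rps27, which encodes a zinc finger protein of the small subunit, is shown with that of its paralogue Rps27l, because the annotation also holds an exact copy of the Rps27 coding sequence, described next. Both are 255 bases long, read from the GENCODE M21 transcripts, 5′ to 3′. Capitals mark the 61 bases at which they differ.
Rps27 (chromosome 3): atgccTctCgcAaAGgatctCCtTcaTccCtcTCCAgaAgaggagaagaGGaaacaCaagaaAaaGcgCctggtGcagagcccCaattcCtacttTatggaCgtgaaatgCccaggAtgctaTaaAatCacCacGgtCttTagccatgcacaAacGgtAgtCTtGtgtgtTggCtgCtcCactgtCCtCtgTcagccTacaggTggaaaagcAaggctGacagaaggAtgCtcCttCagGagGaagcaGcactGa
Rps27l (chromosome 9): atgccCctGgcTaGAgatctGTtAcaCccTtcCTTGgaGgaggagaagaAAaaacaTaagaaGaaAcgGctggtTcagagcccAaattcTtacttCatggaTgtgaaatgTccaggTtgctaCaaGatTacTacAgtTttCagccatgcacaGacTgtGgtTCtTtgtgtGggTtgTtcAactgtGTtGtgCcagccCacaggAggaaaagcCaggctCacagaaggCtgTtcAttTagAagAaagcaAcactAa

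A further gene, Rps27rt on chromosome 9, differs from Rps27 at 0 of these 255 bases. Rps27 was counted at 15.7 CPM on average over the 9 libraries, Rps27rt at 1710 CPM and Rps27l at 2654 CPM. Rps27rt was chosen after its values were seen. Only 1.35% of the 50-base stretches of the Rps27 transcript occur in no other annotated gene, against 77.6% for Rps27l. Over the coding sequence, reads of Rps27 and Rps27rt cannot be told apart.

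Rps16, which encodes a small-subunit protein, has such a copy in a processed pseudogene. Its coding sequence has 441 bases, of which the first 120 are shown; the annotated transcript of Rps16-ps2 on chromosome 5 differs from Rps16 at 0 of 441 bases.
Rps16 (chromosome 7): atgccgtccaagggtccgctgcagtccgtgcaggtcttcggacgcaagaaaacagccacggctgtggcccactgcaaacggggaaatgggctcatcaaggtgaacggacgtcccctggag
Rps16 was counted at 79.9 ± 9.19 CPM in deleted, 86.3 ± 5.94 CPM in inhibited and 83.8 ± 2.62 CPM in control libraries (SD, n = 3 plates each). Rps16-ps2 was counted at 2067 ± 135 CPM in deleted, 2231 ± 128 CPM in inhibited and 2135 ± 137 CPM in control libraries (SD, n = 3 plates each). The copy held 25.7 times the count of the gene. Of the 50-base stretches of the principal Rps16 transcript, 59.9% occur in no other annotated gene. The transcript taken for this has 1109 bases, more than the 441 coding bases shared with the copy.

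Of the 80 genes, 55 had a pseudogene named after them in the tables, and for 21 of these the named pseudogenes summed to more CPM than the gene. In 18 of those 21 the most counted copy had over 75% of its 50-base stretches in transcripts of the parent, and in 9 of them all. Rpl28 had 5.83 CPM and its 3 named copies 764 CPM. For Rps13 the values were 10.0 CPM and 859 CPM over 5 copies. Rps6, the substrate of S6 kinase, had 83.1 CPM and its copies 1672 CPM. At the other end, Rpl32 had 1436 CPM and its copy 4.57 CPM. Over all 222 pseudogenes with a ribosomal protein name, UMIs came to 2.19 to 2.64% of each library, which is 40.4 to 43.1% of the UMIs of the 80 genes themselves. The rule by which reads matching several genes were assigned was not stated. The deposited per-well reports list 0 multimapping reads. They also list reads as ambiguous, 4.29, 4.63 and 4.38% of aligned reads in the kept wells of plates 1, 2 and 3. Which genes these touch was not tested.

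**Figure D1:**
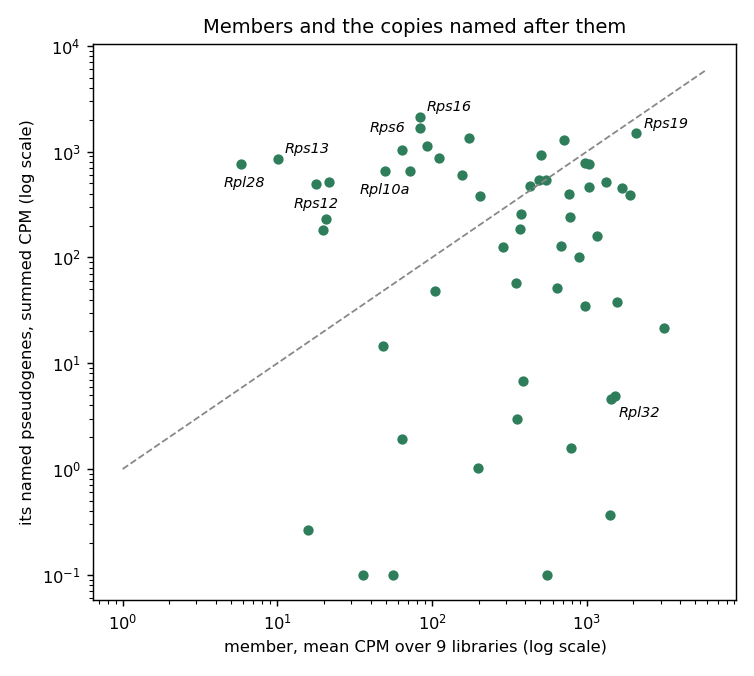
Mean CPM over 9 libraries of the 55 genes that have named pseudogenes (horizontal, log scale) against the summed CPM of those pseudogenes (vertical, log scale), with the line of equal counts dashed. The 21 genes above the line, Rps16, Rps6, Rpl28 and Rps13 among them, had fewer counts than their copies; the 3 sums under 0.1 CPM are drawn at 0.1.

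Levels per kb of exon ranged from 0.385 to 3253 CPM per kb over the 80 genes. The highest was Rps27l, at 2982 ± 371 CPM per kb in deleted, 3429 ± 588 CPM per kb in inhibited and 3348 ± 432 CPM per kb in control libraries (SD, n = 3 plates each). Rpl41, a very short basic peptide of the large subunit, followed at 2416 ± 323 CPM per kb (SD over the 9 libraries). The stalk protein Rplp1 at 1593 ± 96.8 and Rpl4 at 1565 ± 291 CPM per kb, also among the 5 highest, lie within each other's spread. With the longest transcript as the length, 3 of the 5 highest remained among the 5 highest. By CPM with no division by length, Rps14 was highest at 3720 CPM and Rps27l ranked 5 at 2654 CPM. Whether UMI counts grow with length here is not known, as the transcript end counted is not given. The order per kb depends on that scaling.

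At the low end stood Rpl3l, at 0.385 ± 0.347 CPM per kb over the 9 libraries, Rpl39l at 3.00 ± 2.79, Rpl28 at 3.17 ± 0.987, Rps13 at 3.73 ± 0.540 and Rps12 at 8.70 ± 1.69 CPM per kb. Rpl3l, known from muscle, and Rpl39l, known from testis, have 100% of their 50-base stretches to themselves, and the ranges of their levels over the libraries overlapped. Rpl28, Rps13 and Rps12 have 65.5%, 17% and 9.89% of their stretches to themselves. Rpl24 was the other gene under 10 CPM, at 9.62 CPM, and 71.5% of its exon length is overlapped by Gm28037 on the same strand.

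Grouped by own sequence, the 20 genes with under 25% of stretches of their own had a median of 41.8 CPM per kb, the 46 with 25 to 75% had 332 and the 14 with 75% or more had 184 CPM per kb. The single-gene values ranged over 3.73 to 1283, 3.17 to 2416 and 0.385 to 3253 CPM per kb in these groups, so the groups overlapped widely. Of the 10 genes under 25 CPM, 7 belonged to the group with under 25%. Spearman's rho between CPM and own sequence was 0.33 across the 80 genes, which share the same 9 libraries. Own sequence was read from 1 transcript per gene, and other transcripts were not tried. For Rps15a, with 8 named pseudogenes, that transcript has 5130 bases and 94% of own stretches.

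The paralogue pairs differed in which copy was counted. Rpl22 had 367 ± 26.1 CPM in deleted, 389 ± 12.7 CPM in inhibited and 402 ± 10.7 CPM in control libraries (SD, n = 3 plates each). Its paralogue Rpl22l1 had 116, 111 and 108 CPM in deleted, 67.5, 77.7 and 85.2 CPM in inhibited and 123, 130 and 143 CPM in control libraries of plates 1, 2 and 3. Every inhibited library lay below every deleted and every control library. The log2 difference of Rpl22l1 between inhibited and control libraries was −0.78 ± 0.10 (SE), with an edgeR adjusted p of 0.0693, and between inhibited and deleted libraries −0.55 ± 0.10, with an edgeR adjusted p of 0.0521; neither passed 0.05. Rpl22 differed by −0.05 ± 0.07 between inhibited and control libraries (edgeR adjusted p = 0.913).

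Rpl36al, at 496 CPM on average, was counted above Rpl36a at 20.6 CPM, and Rps4l, at 437 CPM, stood near Rps4x at 548 CPM. Rpl36a has 14.5% of own stretches, and its 3 named copies summed to 232 CPM. Rpl7l1 had 194 CPM and Rpl7 had 385 CPM. Rpl39 had 350 CPM and Rpl39l 2.49 CPM. Rpl3 had 508 CPM and Rpl3l 0.633 CPM. Rpl10, on the X chromosome, had 63.8 CPM with 14.6% of own stretches, and its autosomal retrogene Rpl10l, which replaces it in male meiosis, had 29.7 CPM with 92.4%. The 4 named copies of Rpl10 summed to 1035 CPM. The most counted, Rpl10-ps3, had 941 CPM and 96.1% of its 50-base stretches in transcripts of Rpl10.

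Ribosomal protein genes took a smaller share of UMIs in deleted and in inhibited libraries than in control libraries on each of the 3 plates. Their share was 5.71, 5.93 and 5.15% in deleted, 5.62, 5.84 and 5.18% in inhibited and 6.07, 6.35 and 6.12% in control libraries of plates 1, 2 and 3. The means were 5.59 ± 0.404% in deleted, 5.54 ± 0.337% in inhibited and 6.18 ± 0.152% in control libraries (SD, n = 3 plates each). The highest deleted and the highest inhibited library lay below the lowest control library, so the groups did not overlap. A share does not tell fewer ribosomal protein mRNAs from more of all other mRNAs. Markers of trophectoderm were higher in sum in the same libraries: Cdx2, Eomes, Gata3, Tfap2c and Elf5 summed to 34.0 to 42.2 CPM in deleted, 34.0 to 40.6 CPM in inhibited and 26.4 to 28.0 CPM in control libraries, without overlap against control. Of these 5 genes Elf5 was at or near 0 in every library (at most 0.0450 CPM). The other 4 had log2 differences above 0 after deletion, and 3 above and 1 below after inhibition. Gata3 averaged 14.4 CPM in deleted, 9.62 CPM in inhibited and 9.28 CPM in control libraries, and Tfap2c 12.0, 15.9 and 10.5 CPM. The edgeR fit called 0 of the 4 it tested in either comparison, with 1 at an unadjusted p under 0.05 in each (background 10.3% and 9%). DESeq2 called 0 in either. In sum the stem cell markers lay lower in every inhibited library than in every control library. Dppa5a held most of that sum, with means of 4248 CPM in inhibited and 5515 CPM in control libraries. After inhibition 8 of the 10 genes had log2 differences below 0 and 2 above. Nanog was among the lower ones, at 12.5 CPM in inhibited and 22.4 CPM in control libraries on average, without overlap. Its log2 difference was −0.84 ± 0.21 (SE; edgeR adjusted p = 0.355). Pou5f1 was higher, at 57.5 against 51.9 CPM on average. The edgeR fit called 0 of the 10 after inhibition, with 3 at an unadjusted p under 0.05 (background 9%), and DESeq2 called 1 (background 5.03%). After deletion 6 of the 10 lay below 0 and 4 above. There edgeR called 0, with 2 at an unadjusted p under 0.05 (background 10.3%), and DESeq2 called 1 (background 3.29%). Primitive endoderm markers (5 genes) summed to 2.68 to 5.84 CPM in deleted, 3.19 to 4.50 CPM in inhibited and 4.47 to 8.07 CPM in control libraries, and 2-cell-like markers (4 genes) to 1.32 to 39.6 CPM in deleted, 0.105 to 4.41 CPM in inhibited and 0.526 to 23.5 CPM in control libraries; both lists overlapped between groups. The part of these markers in the share was not tested.

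**Figure D2:**
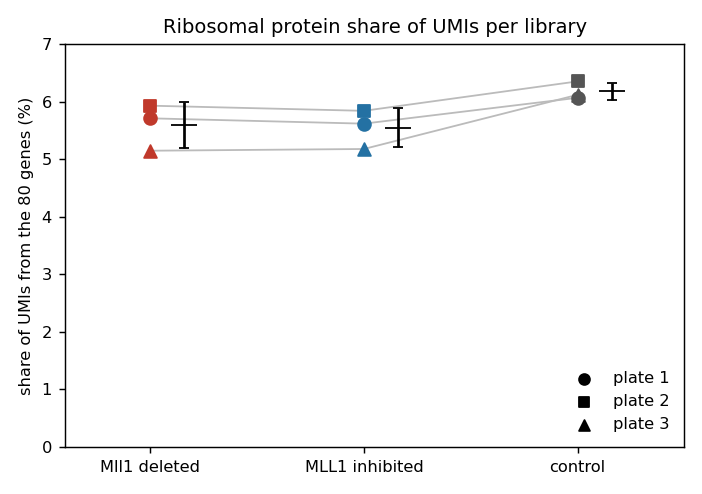
Share of UMIs from the 80 genes (vertical, percent) in the 9 libraries by cell type, with symbols for plates, grey lines joining libraries of a plate, and black marks for the mean ± SD over 3 plates. Deleted libraries lie at 5.15 to 5.93%, inhibited at 5.18 to 5.84% and control at 6.07 to 6.35%.

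Within plates, deleted minus control was −0.357, −0.422 and −0.972 percentage points on plates 1, 2 and 3, and inhibited minus control was −0.449, −0.512 and −0.942 points. Plate 3, with other source wells and with the shallowest deleted wells, gave the largest difference in both comparisons. Without plate 3 the mean difference was −0.389 points for deleted and −0.481 points for inhibited libraries, against −0.584 and −0.634 points over all plates. Inhibited minus deleted was −0.0927, −0.0897 and 0.0300 points. Source wells of 1 type on 1 plate differed by 0.0326 to 0.466 points among themselves. On plate 1 the inhibited source wells (5.46 to 5.81%) overlapped the control ones (5.79 to 6.23%), and the deleted ones (5.69 to 5.72%) did not.

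The mitochondrial share, which has the same denominator, was 4.96, 4.27 and 4.55% in deleted, 3.84, 3.76 and 4.07% in inhibited and 3.70, 3.63 and 3.63% in control libraries; it was highest in deleted libraries on each plate. With mitochondrial UMIs left out of the denominator the mean difference from control was −0.548 points for deleted and −0.644 points for inhibited libraries. Ribosomal protein pseudogenes took 2.19 to 2.42% of UMIs in deleted, 2.22 to 2.36% in inhibited and 2.51 to 2.64% in control libraries. Counting pseudogenes and close relatives with the 80 genes gave mean differences of −0.838 points for deleted and −0.924 points for inhibited libraries.

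Gene by gene, most of the 80 were lower than control by a small amount after deletion, and 0 passed edgeR's quasi-likelihood test with plate as a block at a Benjamini-Hochberg adjusted p of 0.05 over 17119 genes, of which 0.035% were called (lowest adjusted p of a ribosomal protein gene, 0.159). Their median log2 difference was −0.15, a change of −9.82%, against 0.00 for all genes tested and −0.04 for the 1832 genes of at least 100 CPM. The difference was below 0 for 75 of 80 genes, against 50% of all genes tested and 61.2% of genes of at least 100 CPM. It was below 0 on every plate for 48 genes (background 16.3%), and deleted libraries lay wholly below control libraries for 16 (background 5.52%). An unadjusted p under 0.05 was reached by 37 lower genes (background 5.22%) and by 1 higher gene (background 5.11%). Here and below, backgrounds other than that of the share below 0 are not limited to genes of at least 100 CPM. Of the 17119 genes tested 1832 reach that level, and of the 80 ribosomal protein genes 58 do. DESeq2 called 11 genes, all lower, where it called 1.57% of its genes lower, and edgeR on wells thinned to 5869 UMIs called 11 of 78, all lower, where it called 0.69%. Without a filter on low counts edgeR called 6, all lower (background 0.236%). The medians by plate were −0.06, −0.15 and −0.22 on plates 1, 2 and 3.

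Rpl37a of the large subunit (chromosome 1, bases 72711290 to 72713813, mm10) had 339, 273 and 255 CPM in deleted, against 382, 336 and 374 CPM in control libraries of plates 1, 2 and 3. It was lower on each plate, and the groups overlapped by 1 library: the deleted one of plate 1 exceeded the control one of plate 2. The log2 difference was −0.34 ± 0.08 (SE; edgeR adjusted p = 0.203; DESeq2 adjusted p = 0.00537).

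Rpl32, also of the large subunit (chromosome 6, bases 115805505 to 115808747), had 1403, 1510 and 1167 CPM in deleted, against 1632, 1678 and 1717 CPM in control libraries. All deleted libraries lay below all control libraries. Its log2 difference was −0.31 ± 0.08 (SE; edgeR adjusted p = 0.222; DESeq2 adjusted p = 0.0112), and −0.19 without plate 3.

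Rpl41 (chromosome 10, bases 128548114 to 128549305) had 2877, 2830 and 2239 CPM in deleted, against 3227, 3284 and 3176 CPM in control libraries, again without overlap. This made a log2 difference of −0.30 ± 0.06 (SE; edgeR adjusted p = 0.179; DESeq2 adjusted p = 0.00536), and −0.19 without plate 3.

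In the small subunit, Rps25, which some viral mRNAs need for internal initiation (chromosome 9, bases 44407139 to 44410427), had 348, 381 and 295 CPM in deleted, against 396, 441 and 418 CPM in control libraries. The groups did not overlap, and the log2 difference was −0.30 ± 0.07 (SE; edgeR adjusted p = 0.214; DESeq2 adjusted p = 0.00993), and −0.20 without plate 3.

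Rpsa, also called the laminin receptor (chromosome 9, bases 120127689 to 120132369), was the 1 gene higher on every plate (background 15.4%). It had 1172, 1140 and 959 CPM in deleted, against 998, 1051 and 926 CPM in control libraries, and the groups overlapped. The fit gave a log2 difference of 0.13 ± 0.05 (SE; edgeR adjusted p = 0.435).

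**Figure D3:**
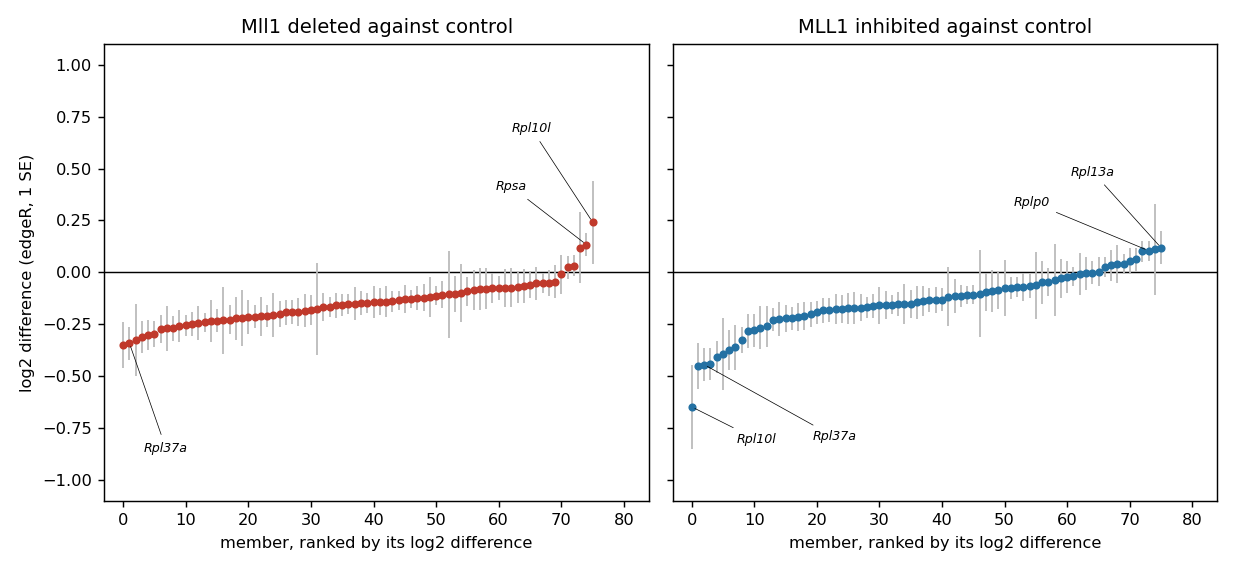
Log2 differences from control (vertical, edgeR estimate with bars of 1 SE) of the ribosomal protein genes of at least 10 CPM, ranked within each panel, for deleted (left) and inhibited (right) libraries. Most points lie below 0, with medians over all 80 genes of −0.15 and −0.14; both panels share the control libraries.

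After inhibition the median log2 difference from control was −0.14, a change of −9.30%, against 0.00 for all genes tested and 0.06 for genes of at least 100 CPM. Of the 80 genes 68 lay below 0, against 50.1% of all genes tested and 34.9% of genes of at least 100 CPM. On every plate 49 were lower (background 16.3%), and for 20 the groups did not overlap (background 6.23%). None of the 80 genes passed edgeR's adjusted p of 0.05 (background 0.00584%, lowest adjusted p 0.223), and 38 had an unadjusted p under 0.05, all lower (background 4.23%). DESeq2 called 12, all lower (background 1.82%), and edgeR on thinned wells 8 of 78, all lower (background 0.607%). Without a filter on low counts edgeR called 6, all lower (background 0.202%). The plate medians were −0.09, −0.11 and −0.21. These values use the same control libraries as those for deletion, so the comparisons are not independent.

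**Figure D4:**
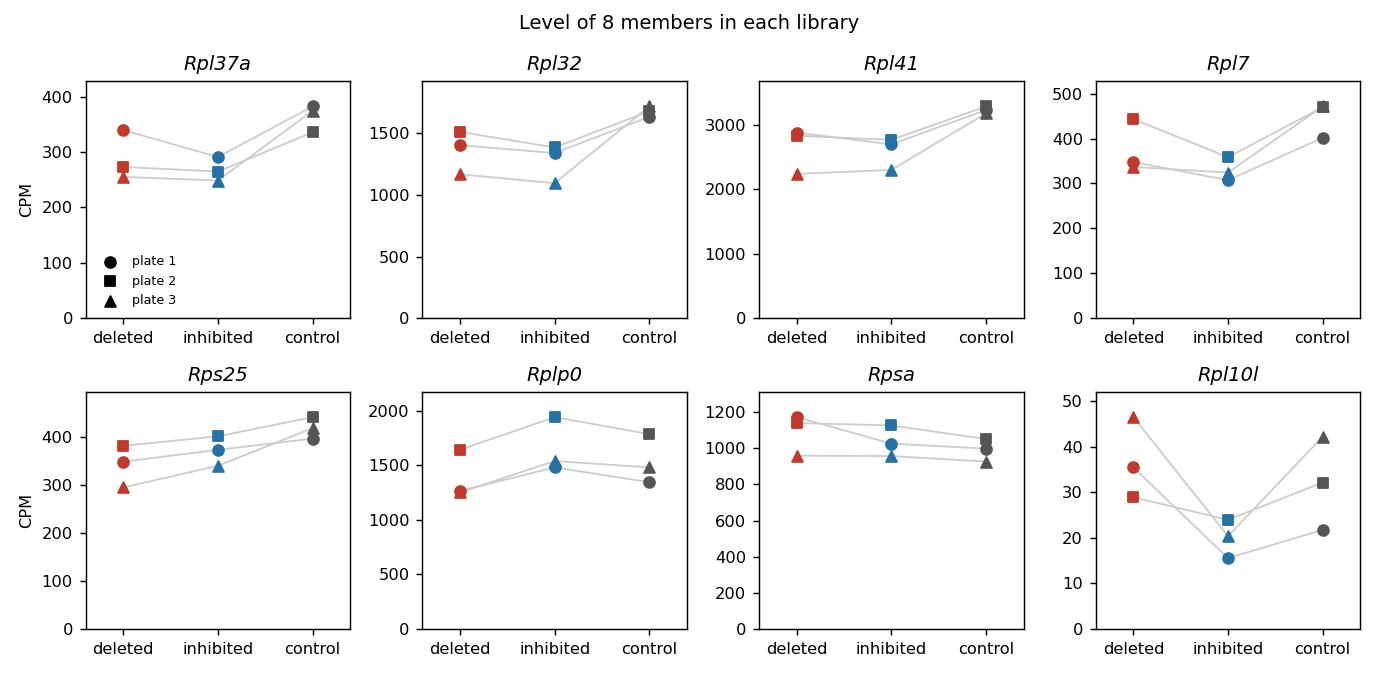
CPM (vertical, from 0) of 8 genes in each library, by cell type, with symbols for plates and grey lines joining libraries of a plate. Rpl37a, Rpl32 and Rpl41 are lower than control on every plate in both deleted and inhibited libraries, while Rpsa is not and Rpl10l is lowest in inhibited libraries.

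Rpl37a had 291, 265 and 248 CPM in inhibited libraries, all below the control values given above; the log2 difference was −0.44 ± 0.08 (SE; edgeR adjusted p = 0.223; DESeq2 adjusted p = 9.49e-05). Rpl32 had 1339, 1385 and 1094 CPM in inhibited libraries, also without overlap with control, a log2 difference of −0.41 ± 0.08 (SE; edgeR adjusted p = 0.230).

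Rpl7 of the large subunit (chromosome 1, bases 16101295 to 16104662) had 307, 359 and 324 CPM in inhibited, against 402, 470 and 472 CPM in control libraries, without overlap. The log2 difference was −0.44 ± 0.08 (SE; edgeR adjusted p = 0.223; DESeq2 adjusted p = 8.59e-05).

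Rpl10l (chromosome 12, bases 66283379 to 66284401) gave the largest negative value among genes of at least 10 CPM. It had 15.6, 24.0 and 20.4 CPM in inhibited, against 21.8, 32.1 and 42.2 CPM in control libraries, and lay below its own plate's control each time. The log2 difference was −0.65 ± 0.20 (SE; edgeR adjusted p = 0.381; DESeq2 adjusted p = 0.0353), and it was −0.39 on thinned wells (edgeR adjusted p = 0.612). The groups overlapped.

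After inhibition 4 genes were higher on every plate (background 16.6%), of which those of at least 10 CPM follow. Rplp0, the base of the ribosomal stalk (chromosome 5, bases 115559467 to 115563727), had 1481, 1942 and 1540 CPM in inhibited, against 1345, 1787 and 1482 CPM in control libraries, a log2 difference of 0.10 ± 0.05 (SE; edgeR adjusted p = 0.568). Rpl13a differed by 0.12 ± 0.08 (SE; edgeR adjusted p = 0.727), a value that was −0.00056 on thinned wells; 59.3% of its exon length is overlapped by Gm45713 and Mir5121. Rpsa differed by 0.06 ± 0.05 (SE; edgeR adjusted p = 0.808).

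When the members' own sum served as the library size, which takes the common shift away, 0 of the 80 genes passed edgeR's adjusted p of 0.05 after deletion (background 0.134%), after inhibition (background 0.00584%) or between inhibited and deleted libraries (background 0.175%). On that scale the medians were −0.00026 for deleted and −0.03 for inhibited libraries against control. Across the 80 genes, the log2 difference of the main fit had a Spearman rho with exon union length of 0.0366 for deletion and −0.0140 for inhibition. With the share of own sequence the rho was −0.0708 and −0.0390. The pseudogenes tested, 156 of 222, had medians of −0.17 for deletion, with 128 below 0, and −0.14 for inhibition, with 123 below 0; edgeR called 0 of them. At an unadjusted p under 0.05 there were 36 for deletion (background 10.3%) and 25 for inhibition (background 9%), and DESeq2 called 7 (background 3.29%) and 8 (background 5.03%). Of all genes tested, 50% lay below 0 for deletion and 50.1% for inhibition.

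Between inhibited and deleted libraries the 80 genes centred on 0: the median log2 difference was 0.00, with 39 below 0, against 50.4% of all genes tested and 27.3% of genes of at least 100 CPM. For edgeR's adjusted p of 0.05 the count was 0 (background 0.31%, lowest adjusted p 0.0706), with 11 at an unadjusted p under 0.05 (background 13.7%). DESeq2 called 4 genes, among them Rpl10l lower and Rplp0 and Rps27l higher (background 4.96%), and edgeR on thinned wells called Rplp0 and Rps27l (background 1.9%). Without a filter on low counts edgeR called Rpl10l and Rplp0 (background 1.31%).

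Rplp0 had 1481, 1942 and 1540 CPM in inhibited, against 1266, 1643 and 1252 CPM in deleted libraries. It was higher on every plate by 0.23, 0.24 and 0.30 on the log2 scale, and the fit gave 0.26 ± 0.05 (SE; edgeR adjusted p = 0.0706; DESeq2 adjusted p = 0.00216). Rps27l, a paralogue that p53 induces, had 3014, 3132 and 2248 CPM in inhibited, against 2516, 2687 and 2098 CPM in deleted libraries, a log2 difference of 0.19 ± 0.05 (SE; edgeR adjusted p = 0.128; DESeq2 adjusted p = 0.0444). Rpl30 differed by 0.18 ± 0.08 (SE; edgeR adjusted p = 0.356). Rps27 differed by 0.29 ± 0.22 (SE; edgeR adjusted p = 0.631), and by 0.07 on thinned wells; it had 15.7 CPM.

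On the lower side, Rpl10l had 15.6, 24.0 and 20.4 CPM in inhibited, against 35.5, 28.9 and 46.5 CPM in deleted libraries, with no overlap. In the fit the log2 difference was −0.89 ± 0.20 (SE; edgeR adjusted p = 0.111; DESeq2 adjusted p = 0.000998). Rpl7 differed by −0.18 ± 0.08 (SE; edgeR adjusted p = 0.339), Rpl39 by −0.16 ± 0.09 (SE; edgeR adjusted p = 0.502), Rps4x by −0.13 ± 0.08 (SE; edgeR adjusted p = 0.534) and Rpl8 by −0.10 ± 0.05 (SE; edgeR adjusted p = 0.367).

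Genes that work with ribosomal proteins were tested in the same fit. One list held 14 genes whose mRNAs are also known for a pyrimidine start: 10 translation factors and, beside them, Npm1, Nap1l1, Hnrnpa1 and Tpt1. RefSeq's table held 8 promoters of this list, and 4 of them had the pyrimidine motif described below. After deletion 9 of the 14 lay above 0 and 5 below, with a median log2 difference of 0.07; after inhibition 6 lay above and 8 below, with a median of −0.03. The elongation factors Eef2 and Eef1a1 had the highest log2 differences after deletion, 0.33 ± 0.08 (SE; edgeR adjusted p = 0.203) and 0.27 ± 0.06 (SE; edgeR adjusted p = 0.203). At the other end were Npm1, a nucleolar chaperone, at −0.25 ± 0.05 (SE; edgeR adjusted p = 0.170) and the elongation factor subunit Eef1d at −0.19 ± 0.05 (SE; edgeR adjusted p = 0.247). Of 24 ribosome assembly genes 9 lay above 0 and 15 below after deletion (median −0.05), and 16 above and 8 below after inhibition (median 0.03). Of the 14 genes edgeR called 0 in either comparison with control, with 6 at an unadjusted p under 0.05 after deletion (background 10.3%) and 2 after inhibition (background 9%), and DESeq2 called 3 (background 3.29%) and 0. Of the 24 assembly genes edgeR called 0, with 2 at an unadjusted p under 0.05 in each comparison with control, and DESeq2 called 0. Between inhibited and deleted libraries the medians were −0.12 for the 14 genes and 0.13 for the assembly genes. Genes of at least 100 CPM had a median of 0.10. There edgeR called 0 of either list. At an unadjusted p under 0.05 were 8 of 14 and 8 of 24 (background 13.7%), and DESeq2 called 4 and 1 (background 4.96%).

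Plates differed for some genes by more than the cell types did. Rpl7a averaged 514, 736 and 374 CPM on plates 1, 2 and 3, and Rps7 69.4, 70.5 and 112 CPM. The ratio of the highest to the lowest plate was 1.97 for Rpl7a and 1.61 for Rps7, and the block takes these differences out of the tests.

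The share of UMIs per well varied with depth, and differently by plate. Spearman's rho between the share and total UMIs over wells was −0.0515, −0.0272 and −0.352 in deleted, −0.179, 0.0285 and −0.286 in inhibited and −0.105, 0.0776 and −0.127 in control libraries of plates 1, 2 and 3. Wells share a library, and the total is both the depth and the denominator. With UMIs outside the 80 genes as depth, the mean over libraries was −0.120, against −0.113.

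Wells of each library were divided into 5 classes of equal size by depth within that library. The same class therefore differs in depth between libraries, and differences between classes are not matched for depth. The deleted wells of plate 3 held 6.00, 5.49, 5.18, 5.21 and 5.10% from the shallowest to the deepest class, and the control wells of that plate 6.25, 6.12, 6.33, 6.20 and 6.04%. Their difference was −0.244 points in the shallowest and −0.945 points in the deepest class. Inhibited minus control wells of plate 3 was −0.285 points in the shallowest and −0.905 points in the deepest class. On plates 1 and 2 both ends lay closer together: deleted minus control was −0.525 and −0.234 points in the shallowest and −0.393 and −0.547 points in the deepest classes, and inhibited minus control was −0.490 and −0.418 points and then −0.503 and −0.589 points. The difference was below 0 in every class of every plate for both comparisons. The shallowest class of plate 3 had a median of 3989 UMIs per well in deleted, 5420 in inhibited and 7225 in control wells. The wells without cells, 15 in all, had a median of 165 UMIs, and ribosomal protein genes took 6.03% of their pooled UMIs. The part of free RNA in these values was not tested.

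**Figure D5:**
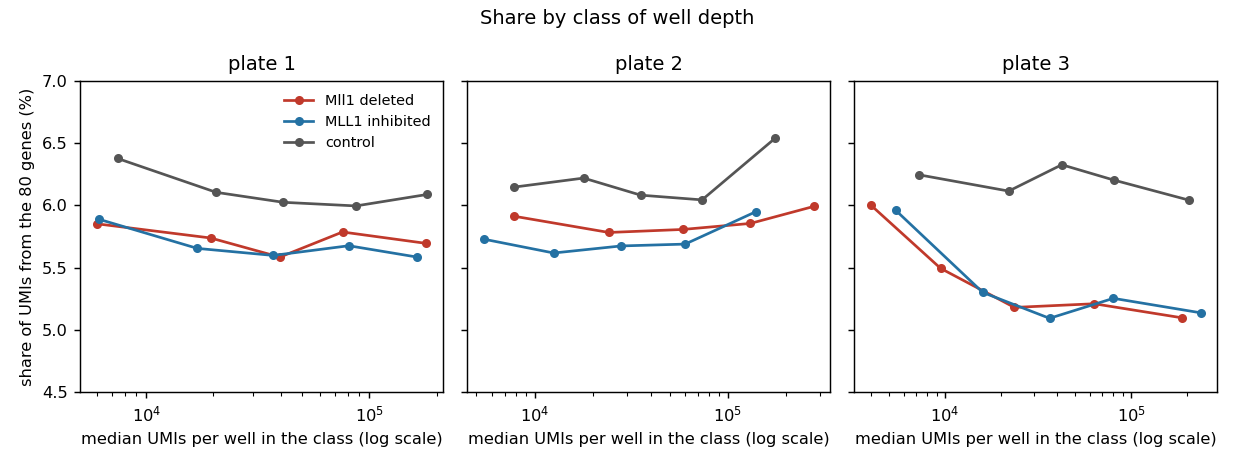
Share of UMIs from the 80 genes (vertical, percent, axis from 4.5) against the median UMIs per well (horizontal, log scale) in each of the 5 depth classes, by cell type and plate. Control wells lie highest in every class, and on plate 3 the share in deleted and inhibited wells is 6.00 and 5.96% in the shallowest class and 5.10 and 5.14% in the deepest.

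After thinning each well to 5869 UMIs, which 3971 wells reached and 442 did not, the mean share was 5.71, 5.82 and 5.25% in deleted, 5.67, 5.75 and 5.27% in inhibited and 6.12, 6.22 and 6.18% in control wells of plates 1, 2 and 3. The order of cell types against control was as before. Wells differed from each other by an SD of 0.818 to 0.986 points, 2.81 to 3.15 times what binomial counting gives. The rho of the thinned share with the original depth was −0.158 in deleted, −0.184 in inhibited and −0.0780 in control wells of plate 3.

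Members did not keep fixed proportions among themselves as depth grew. Rpl38, which in mouse is needed for translation of a set of Hox mRNAs, had a lower share of ribosomal protein UMIs in the deepest than in the shallowest depth class of all 9 libraries, by −0.66 ± 0.25 on the log2 scale (mean ± SD over libraries). Rps20 (−0.42 ± 0.16) did so in all 9 as well, and Rpl12 (−0.57 ± 0.39) and Rps12 (−0.50 ± 0.51) in 8 and 7. The share of Rpl5, which binds 5S rRNA and Mdm2, was higher in the deepest class of all 9 libraries (0.37 ± 0.15), as was that of Rpl7a (0.38 ± 0.17). Rpl9 (0.56 ± 0.40) and Rps7 (0.44 ± 0.31) were higher in 8, and Rpl10l (0.52 ± 1.15) in 7.

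The spread of each gene over wells was set against that of a fixed share of each well's ribosomal protein UMIs, for which the ratio of variances is near 1. The 4 largest ratios, as means over the 9 libraries, were those of Rpl4 (29.0, range 19.9 to 36.8), Rps27l (28.3), Rps14 (19.1) and Rps3 (18.0). At equal depth they were 3.99, 3.77, 2.89 and 2.98, and 51 of the 80 genes exceeded 1.5, with a median of 1.64. The ratio followed abundance, with a Spearman rho of 0.85 with CPM across the 80 genes at equal depth. Rpl4, Rps27l, Rps14 and Rps3 also had the 4 largest ratios at equal depth.

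Promoters were read for the pyrimidine start that ribosomal protein mRNAs are known for. RefSeq's promoter table (GRCm38.p6) held 72 promoters of 60 of the 80 genes. The motif searched was a C followed by at least 4 bases that are C or T, starting within 10 bases of the annotated start, on the transcribed strand only. It was found in 40 of 72 promoters (55.6%), against 10093 of all 32851 promoters (30.7%). Starting within 3 bases, the shares were 34.7% and 11.5%; with at least 7 pyrimidines after the C, they were 31.9% and 8.11%. The windows below run from 10 bases before the annotated start and show examples with and without a match among genes named above; capitals mark the match.
Rpl38 (chr11:114668570-114668599, plus strand): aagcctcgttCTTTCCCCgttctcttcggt
Rps6 (chr4:86857348-86857377, minus strand): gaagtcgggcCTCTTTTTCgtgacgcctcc
Rps27 (chr3:90213629-90213658, minus strand): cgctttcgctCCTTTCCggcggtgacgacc
Rpl7a (chr2:26910797-26910826, plus strand): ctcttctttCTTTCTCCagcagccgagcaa
Rpl37a (chr1:72711250-72711279, plus strand): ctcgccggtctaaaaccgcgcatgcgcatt
Rplp0 (chr5:115559457-115559486, plus strand): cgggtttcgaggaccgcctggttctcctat
Rpl41 (chr10:128549149-128549178, minus strand): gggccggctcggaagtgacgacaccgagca

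The match begins at the annotated start itself in Rpl38, Rps6 and Rps27. Windows of Rpl37a, Rplp0 and Rpl41 hold no match near the start that RefSeq gives, which says only that these letters are absent there. The 38 genes with a match had median log2 differences of −0.13 after deletion and −0.15 after inhibition, the 22 without a match −0.15 and −0.17, and the 20 without a promoter entry −0.18 and −0.11.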

How the data were processed

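The authors deposited, for each of 3 plates, a table of raw UMI counts per gene and well, not normalised, and a report giving each well's cell type; in all 4640 wells the table's totals equalled the report's. The tools used, per the submitters' processing notes, include featureCounts, Subread 1.4.6-p1 and the aligner STAR 2.5.2b, with build mm10; the handling of reads matching several genes, the use of strand and the transcript end counted are not given in the sources used here. Spike-in and reporter sequences (0.742, 0.648 and 0.615% of UMIs on plates 1, 2 and 3) were left out, and 626 of 29267 identifiers had no name in GENCODE M21. Of the 197 wells left out, 113 failed the gene minimum and 86 the mitochondrial limit. No doublet caller was run; fits without the deepest 5% of wells stand beside.

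Counts summed per plate and cell type were tested with edgeR 4.0.16 (R 4.3.3; TMM, filterByExpr, quasi-likelihood F test, plate as a block, all 9 libraries in 1 fit), adjusted over all 17119 genes. The labels put all cell types on each plate; deviations from cell type means correlated at 0.105 to 0.179 over 9 same-plate pairs and −0.113 to 0.00039 over 18 other pairs. DESeq2 1.42.0 was an alternative. On simulated counts for deletion against control (16727 genes tested), edgeR recovered 50% of 100 genes changed 1.5-fold and 87% of 100 changed 2-fold. The simulated means held no plate effects. Changes near the median of the 80 genes after deletion, −9.82%, were not simulated, so recovery at that size is not known. CPM values use the TMM library size; per kb means per kb of exon union. Own sequence is the percent of 50-base stretches of the principal transcript found in no other annotated gene. Comparisons of depth classes add 0.5 UMI per gene.

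Genes are named by rule: in each comparison up to 5 lowest and 5 highest of at least 10 CPM with 1 sign on all plates, those under 10 CPM, paralogue pairs, the 5 highest and lowest per kb, the 5 with the widest spread and the 5 at either end with depth. Genes named for their copies or start sequence, and translation factors given values, were chosen after their values were seen. Some genes that the rule names are not reported here. Members and lists were chosen with earlier results of these data known. Spearman correlations across genes or wells are descriptions without a test.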

Additional observations from a re-analysis of the deposited data

Results flagged for a closer look

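Wells of control RNA, which hold no cell of the study, carried ribosomal protein UMIs above wells without cells: the median was 45 UMIs per well in 15 wells of control RNA, against 9 in 15 wells without cells. Their median totals were 904 and 165 UMIs, and ribosomal protein genes took 4.69 and 6.03% of the pooled UMIs.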

How the results depend on the processing

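The count of ribosomal protein genes past an adjusted p of 0.05 depended on the test. It was 0 in edgeR's main setting, with RLE size factors, without the deepest wells, without the well filter, without mitochondrial genes, with the members' sum as library size and without any one replicate. With no filter on low counts it was 6 for deletion, 6 for inhibition and 2 for inhibition against deletion; on thinned wells 11, 8 and 2; with DESeq2 11, 12 and 4. The cause was not tested. Without the replicate block the counts were 0, 0 and 0 and the medians −0.14, −0.14 and −0.0040. The genes at an unadjusted p under 0.05 were then 7 for deletion, 12 for inhibition and 2 for inhibition against deletion. The share over all genes without the block is not given here, so these counts have no background. With the block they were 38 (background 10.3%), 38 (background 9%) and 11 (background 13.7%). With the members' sum as library size the medians were −0.00026, −0.0325 and −0.0371, as that scaling centres the members by construction. Leaving out each replicate gave medians of −0.19 to −0.10 for deletion, −0.17 to −0.10 for inhibition and −0.0020 to 0.02 between them. The mean share difference of inhibited libraries was −0.924 points with pseudogenes and relatives counted, since these add UMIs. With the longest transcript as length, 3 of the 5 highest genes stayed. The motif share was 34.7% within 3 bases and 31.9% with 7 pyrimidines. Rpsa after deletion was 0.08 without the deepest wells, against 0.13. Between inhibited and deleted libraries Rps27 was 0.09 without replicate 2 and 0.12 without the deepest wells, against 0.29; Rpl7 and Rps4x moved to −0.12 and −0.08 without replicate 2, and Rpl39 to −0.10 without replicate 1. Rpl13a turned to −0.00056 on thinned wells (inhibition against control); the cause was not tested. Genes under 10 CPM, Rpl3l, Rpl39l, Rpl28 and Rpl24, had SEs of 0.21 to 1.24 (log2) against control, wider than most differences seen elsewhere.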
